A study of Mus musculus with 9 samples.

Results

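Neutrophils are the short-lived phagocytes that mature in the bone marrow and are recruited to injured tissue, the liver included. As they mature they fill granules in a fixed order, with the primary granules (myeloperoxidase, elastase) made at the promyelocyte stage, the secondary granules (lactoferrin, cathelicidin) at the myelocyte stage, and the cytosolic S100 proteins and the surface receptors accumulating towards the end. Their exit from the marrow and their recruitment are driven by G-CSF and by chemokines that bind CXCR2. The 10 genes described here were chosen by name as products of this programme: S100a8, S100a9, Ngp, Camp, Ltf, Retnlg, Csf3r, Cxcr2, Mpo and Elane. All 10 are among the 24453 genes with values, and 8 of them passed the filter on low counts and were tested with 13651 genes in all. Cxcr2 and Elane did not pass it and are given as values.

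The samples were 3 libraries each of steady-state hepatic stellate cells (HSCs, the vitamin A-storing pericytes of the liver), of activated fibroblasts from carbon tetrachloride-treated livers (CCl4-fib) and of activated fibroblasts from livers with non-alcoholic steatohepatitis (NASH-fib). All mice were C57BL/6J. HSCs came from untreated wild-type livers that were perfused to remove blood, and were enriched on a density gradient without a sort on CD45, the surface antigen of leukocytes. CCl4-fib came from Col1a2-GFP Tg mice injected with CCl4 over 8 weeks, 2 times a week, and NASH-fib from MC/COL mice, which carry the same GFP transgene and lack the melanocortin 4 receptor (MC4R-KO), fed Western diet (WD) for 20 weeks from 8 weeks of age. Both kinds of fibroblast were sorted as cells that were negative for CD45 and for the dead-cell dye 7-AAD and positive for GFP, which the collagen α2(I) promoter drives, so the sort was set to collect cells using that promoter. The ages of the other mice were not given in the sources used here. Genotype, diet and toxin differ together between the groups, and their parts in any difference cannot be told apart. Each library was a pool of cells from 3 to 5 mice, so the p-values below measure the spread between pools.

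The values are reads per gene scaled to a common total, and the recovered depth was between 3071070 and 5634273 reads on genes, so that 3 reads, the count taken here as the floor, corresponded to a value between 2.38 and 4.37. HSC replicate 2 and NASH-fib replicate 1, which carry the same date in their labels, stood apart from the other libraries of their groups in the same direction, their deviations from the group means correlating with r = 0.645 over the 13651 genes tested. CCl4-fib replicate 1 carries that date too and did not deviate with them (r = -0.072 and -0.127). Results that rest on them are given with and without them. What the date marks is not stated. The markers of the labelled cells were in place, with a summed value of 8 quiescent stellate cell markers of 27947 to 33077 in HSCs against 1949 to 3207 in the sorted cells, and of 9 activated fibroblast markers of 26098 to 56386 in the sorted cells against 8876 to 14838 in HSCs. The summed value of 13 pan-leukocyte markers was 2769 to 6152 in HSCs, 1752 to 4107 in NASH-fib and 221 to 509 in CCl4-fib.

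The genes lie at 7 places in the genome, and 5 of them fall into a pair of neighbourhoods. By the coordinates in the file (mm10, equal to RefSeq GRCm38.p6), S100a8 (chr3:90669071-90670034, + strand) and S100a9 (chr3:90692630-90695721, − strand) are 22.6 kb apart on chromosome 3. Camp (chr9:109847377-109849456, − strand), Ngp (chr9:110419808-110423012, + strand) and Ltf (chr9:111019292-111042766, + strand) lie within 1195.4 kb of chromosome 9, with 31 other genes between them. The promoter windows of the 5 genes that were higher in NASH-fib than in CCl4-fib are shown because these genes passed the test in the same direction. Each runs from 250 bases before to 50 bases after the transcription start and is taken from RefSeq GRCm38.p6 in the direction of transcription: S100a8 at chr3:90668821-90669120 (+), S100a9 at chr3:90695672-90695971 (−), Ngp at chr9:110419558-110419857 (+), Ltf at chr9:111019042-111019341 (+) and Csf3r at chr4:126024409-126024708 (+). The Csf3r window is set at 126024659, the start of the transcript in the file, while RefSeq places the start of the gene upstream, at 126023441. The window thus lies within the span of the gene. Capitals mark matches on either strand to TTNNGNAA, a loose core of the C/EBP family, or to GAGGAA, a core of PU.1.
S100a8: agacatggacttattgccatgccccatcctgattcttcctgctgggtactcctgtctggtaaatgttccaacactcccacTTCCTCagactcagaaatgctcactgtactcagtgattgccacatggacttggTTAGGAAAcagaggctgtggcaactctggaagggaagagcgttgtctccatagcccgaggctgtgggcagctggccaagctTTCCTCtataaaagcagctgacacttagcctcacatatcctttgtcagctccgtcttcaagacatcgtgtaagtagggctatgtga
S100a9: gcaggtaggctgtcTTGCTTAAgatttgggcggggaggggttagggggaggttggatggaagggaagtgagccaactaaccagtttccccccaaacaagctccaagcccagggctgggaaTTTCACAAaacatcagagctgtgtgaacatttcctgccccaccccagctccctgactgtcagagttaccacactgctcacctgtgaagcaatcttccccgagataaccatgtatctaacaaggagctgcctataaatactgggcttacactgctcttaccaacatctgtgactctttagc
Ngp: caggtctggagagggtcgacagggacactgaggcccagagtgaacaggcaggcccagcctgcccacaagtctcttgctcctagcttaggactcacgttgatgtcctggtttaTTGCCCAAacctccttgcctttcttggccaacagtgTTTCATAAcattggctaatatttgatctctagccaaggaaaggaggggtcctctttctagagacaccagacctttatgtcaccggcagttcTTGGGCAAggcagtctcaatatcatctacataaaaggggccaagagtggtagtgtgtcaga
Ltf: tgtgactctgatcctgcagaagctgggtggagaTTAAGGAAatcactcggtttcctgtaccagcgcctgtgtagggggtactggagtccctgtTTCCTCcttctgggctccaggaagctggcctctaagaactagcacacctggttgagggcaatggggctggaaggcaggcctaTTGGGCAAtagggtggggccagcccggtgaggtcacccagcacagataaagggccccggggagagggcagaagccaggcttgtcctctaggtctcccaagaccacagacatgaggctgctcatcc
Csf3r: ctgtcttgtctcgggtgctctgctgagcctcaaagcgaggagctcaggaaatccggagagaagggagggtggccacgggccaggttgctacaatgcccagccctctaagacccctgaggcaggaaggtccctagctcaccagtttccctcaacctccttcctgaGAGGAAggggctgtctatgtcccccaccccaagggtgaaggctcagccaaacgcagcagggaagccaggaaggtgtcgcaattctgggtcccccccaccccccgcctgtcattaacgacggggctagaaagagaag

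All 10 genes matched a RefSeq promoter by symbol. The C/EBP-type letters were found in 5 of the 10 windows, against 40.7% of 27025 promoters of the same length, and the PU.1-type letters in 6 of 10, against 28.3%. Ngp held 3 matches of the first kind, S100a9 and Ltf 2 each, and S100a8 and Retnlg 1 each. Cxcr2, Mpo and S100a8 held 2 matches of the second kind and Csf3r, Elane and Ltf 1 each, while the Camp window held neither. No matches overlapped. These are matches of letters only.

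**Figure D1:**
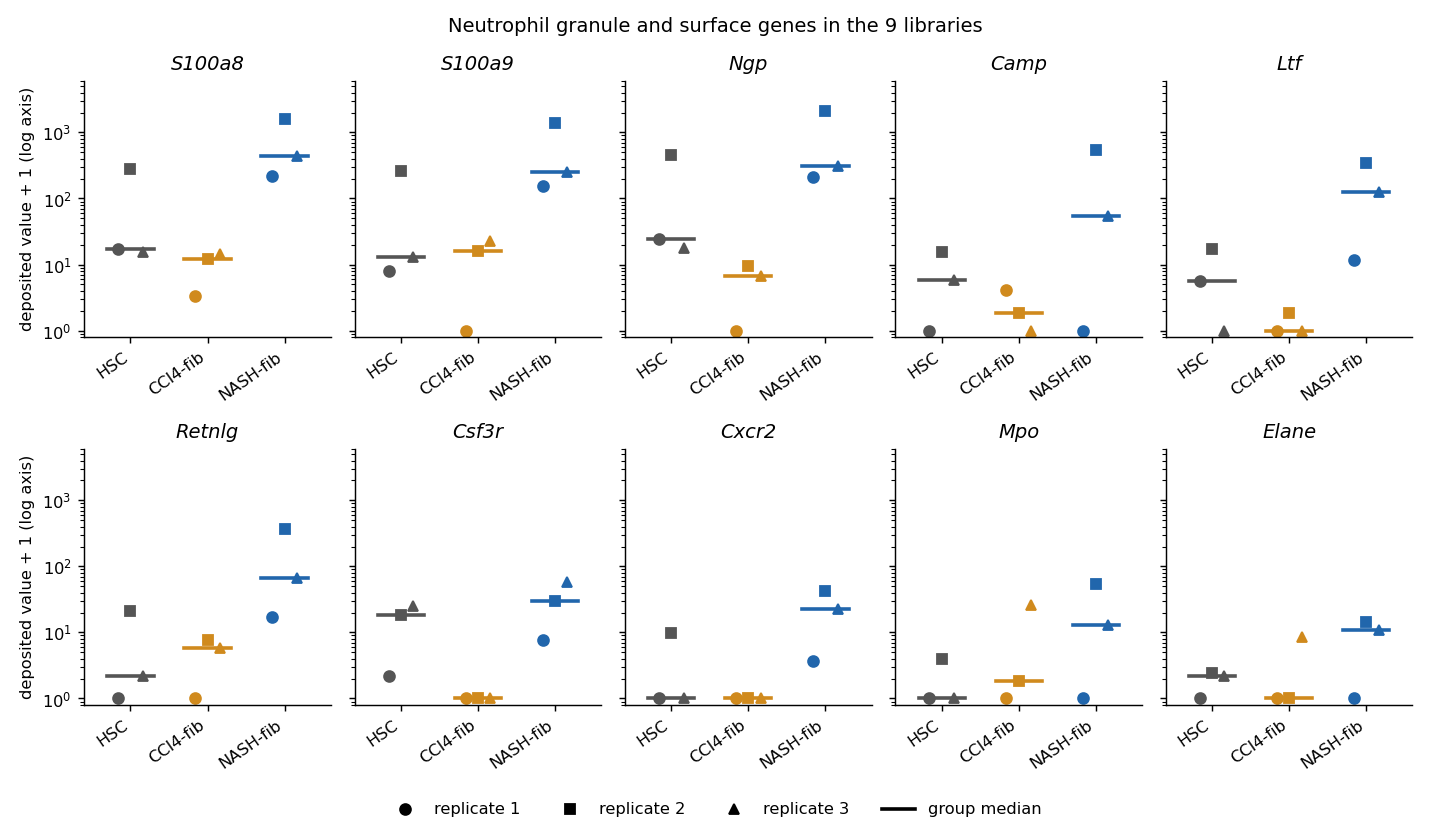
Deposited value plus 1 (log axis) of the 10 genes in each of the 9 libraries, with a marker per replicate, a colour per group and a bar at the group median. NASH-fib replicate 2 is the highest library for 9 of the 10 genes, and HSC replicate 2 is the highest HSC library for all but Csf3r.

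S100a8 and S100a9 encode the subunits of calprotectin, the calcium-binding protein that fills the cytosol of mature neutrophils and is also made by monocytes. In replicates 1, 2 and 3, S100a8 had values of 16.4, 281 and 14.35 for HSCs, 2.38, 11.1 and 13.4 for CCl4-fib and 222, 1577 and 439 for NASH-fib. All 3 NASH-fib libraries lay above all 3 CCl4-fib libraries, whereas HSC replicate 2 fell within the range of NASH-fib and the other HSC libraries lay near CCl4-fib. Its log2 fold change in NASH-fib against CCl4-fib was 6.00 (SE 1.13), which passed the test of limma (Benjamini-Hochberg adjusted p = 0.0138). S100a9 had values of 7.01, 262 and 12.0 for HSCs, 0, 15.3 and 21.9 for CCl4-fib and 151, 1395 and 253 for NASH-fib. Again HSC replicate 2 and the NASH-fib libraries lay above all others. It was higher in NASH-fib than in CCl4-fib by 5.71 on the log2 scale (SE 1.49, limma adjusted p = 0.0371). In bulk samples such as these, fewer cells of a type and less RNA per cell cannot be told apart.

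Per kilobase of exon, the mean values in NASH-fib were 1928 for S100a8 and 1162 for S100a9, against 766 for Ngp, the next of the 10 genes. The authors counted at most 3 reads per position, and S100a8, with 387 bases of exon, reached 4.58 reads per base in NASH-fib replicate 2, and S100a9 3.03. These are the only 2 of the 10 genes, and 2 of 277 genes in the file, at 3 or more reads per base in any library. Since S100a8 exceeded 3 reads per base, how the limit was applied cannot be told from these values. Whether it lowered the values of S100a8 and S100a9 in that library, which may be too low, was not tested.

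Ngp (neutrophilic granule protein), Camp (the cathelicidin antimicrobial peptide) and Ltf (lactoferrin, which binds iron) are products of the secondary granules. Ngp had values of 23.4, 454 and 16.7 for HSCs, 0, 8.51 and 5.72 for CCl4-fib and 208, 2130.4 and 314.5 for NASH-fib. Its NASH-fib and CCl4-fib libraries did not overlap, and HSC replicate 2 exceeded 2 of the 3 NASH-fib libraries. Ngp had the largest fitted difference of the 8 tested genes between NASH-fib and CCl4-fib, 7.02 on the log2 scale (SE 1.33, limma adjusted p = 0.0141). Ltf had values of 4.68, 16.0 and 0 for HSCs, 0, 0.85 and 0 for CCl4-fib and 10.9, 343 and 124 for NASH-fib. A single read fell on Ltf in the 3 CCl4-fib libraries together, against 519 in NASH-fib, a ratio per depth of 629 (exact 95% interval 112 to 24880, counting error only). The fitted log2 fold change of Ltf was 6.02 (SE 1.29, limma adjusted p = 0.0207).

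Camp departed from the other secondary granule genes. Its values were 0, 14.6 and 4.78 for HSCs, 3.17, 0.85 and 0 for CCl4-fib and 0, 536 and 54.05 for NASH-fib. NASH-fib replicate 1, which had 153 reads on Ngp, had 0 on Camp, so the groups overlapped and the log2 fold change of 3.97 against CCl4-fib (SE 1.91, limma adjusted p = 0.196) did not pass the test. Without that library the difference was 6.44 on the log2 scale and passed (limma adjusted p = 0.0276). The reads on Camp per read on Ngp were 0.252 in NASH-fib replicate 2 (602 of Camp and 2392 of Ngp, exact 95% interval 0.230 to 0.275) and 0.172 in replicate 3 (0.127 to 0.229). In NASH-fib replicate 1 the upper limit of that ratio was 0.0244, and in HSC replicate 2 it was 0.0321 (0.0152 to 0.0597). Ltf per Ngp was likewise higher in NASH-fib replicates 2 (0.161) and 3 (0.394) than in NASH-fib replicate 1 (0.0523) and HSC replicate 2 (0.0353), but with replicate 3 above replicate 2. In HSC replicate 1 it was 0.2, from 4 and 20 reads (exact 95% interval 0.0497 to 0.597).

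Retnlg encodes resistin-like gamma, a secreted protein that marks mature marrow and blood neutrophils of mice. It had values of 0, 20.4 and 1.2 for HSCs, 0, 6.8 and 4.77 for CCl4-fib and 16.3, 367 and 64.9 for NASH-fib. The NASH-fib libraries lay above those of CCl4-fib without overlap. Its log2 fold change of 4.40 (SE 1.37) missed the threshold by limma (adjusted p = 0.0662), and it passed by edgeR (5.33, adjusted p = 0.0454) and by DESeq2 (5.33, adjusted p = 0.0283) on the recovered reads.

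Csf3r, the receptor of G-CSF, and Cxcr2, the receptor of CXCL1, CXCL2 and CXCL5, carry the signals that produce and attract neutrophils, and both had no read in any CCl4-fib library. Csf3r had values of 1.17, 17.5 and 23.9 for HSCs, 0, 0 and 0 for CCl4-fib and 6.8, 28.5 and 57.0 for NASH-fib. It is the only one of the 10 genes whose highest HSC library was replicate 3 and whose highest NASH-fib library was replicate 3. Counted against 3 reads per library, Csf3r was at least 11.8-fold higher in NASH-fib than in CCl4-fib, and it passed the test (limma adjusted p = 0.0241). The entry in the file is a non-coding transcript of the gene, whose exons the counting used. Cxcr2 had values of 0, 8.74 and 0 for HSCs, 0, 0 and 0 for CCl4-fib and 2.72, 41.0 and 21.6 for NASH-fib, with 70 reads in NASH-fib, and was at least 8.38-fold higher there than in CCl4-fib. It was not tested with the filter in place. Fitted without the filter over 18537 genes, its difference from CCl4-fib passed by limma (adjusted p = 0.0444) and that from HSCs did not (adjusted p = 0.133).

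Mpo (myeloperoxidase) and Elane (neutrophil elastase), the enzymes of the primary granules, were among the scarcest per length. The mean values per kilobase of exon in NASH-fib were between 7.16 and 8.59 for these enzymes and the receptors, against 58.5 for Ltf, the next above. Mpo had values of 0, 2.91 and 0 for HSCs, 0, 0.85 and 24.8 for CCl4-fib and 0, 53.4 and 11.8 for NASH-fib. Elane had values of 0, 1.46 and 1.2 for HSCs, 0, 0 and 7.63 for CCl4-fib and 0, 13.4 and 9.83 for NASH-fib. For both genes CCl4-fib replicate 3 reached into the range of NASH-fib and NASH-fib replicate 1 had no read, so the groups overlapped. The log2 fold change of Mpo against CCl4-fib was 1.29 (SE 1.56, limma adjusted p = 0.610), and without NASH-fib replicate 2 it was -0.02. Mpo shares exon bases with Gm11505 on the opposite strand, and since reads of either strand were counted, the 2 cannot be told apart. HSCs held 2 reads on each gene, and the ratio of reads per depth in NASH-fib to HSCs was 29.8 for Mpo (exact 95% interval 7.95 to 251, counting error only) and 10.3 for Elane (2.58 to 90.1). NASH-fib replicate 2 held 60 of the 72 reads on Mpo and 15 of the 25 on Elane. Between pools neither gene passed against HSCs. Mpo was at 2.49 on the log2 scale (SE 1.56, limma adjusted p = 0.421). Elane, fitted without the filter, was at 1.615 (SE 1.1, limma adjusted p = 0.506).

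Between NASH-fib and CCl4-fib, the comparison of the models, 5 of the 8 tested genes passed higher by limma, where 4.97% of all genes tested did, and 0 passed lower, where 5.66% did (10.6% in either direction). In 7 of the 10 genes, 6 of them tested, every NASH-fib library exceeded every CCl4-fib library, against 17.1% of all genes tested, and in 0 of the tested genes did every NASH-fib library lie lower, against 22.0%. The median log2 fold change of the 8 genes was 5.14, against -0.11 for all genes tested. Camp, Ltf, Retnlg, Csf3r and Mpo met the filter on low counts only with NASH-fib libraries counted. That they were tested, and with it these counts, thus depended partly on their NASH-fib reads. S100a8, Ngp, Ltf and Csf3r still passed without NASH-fib replicate 2, the library with the most reads on these genes (limma adjusted p between 0.0235 and 0.0423), and S100a9 did not (adjusted p = 0.0782). The number called was 0 without NASH-fib replicate 3, where S100a8 had a log2 fold change of 6.15 (limma adjusted p = 0.0527), and 2 without any one of the CCl4-fib libraries. Without HSC replicate 2 and NASH-fib replicate 1 together it was 7. Calls over all genes tested moved too, with 678 higher in the fit of all libraries and 94 without NASH-fib replicate 3. They were 335, 162 and 292 without CCl4-fib replicates 1, 2 and 3, and 750 without HSC replicate 2 and NASH-fib replicate 1 together.

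Between NASH-fib and HSCs, 0 of the 8 tested genes passed by limma, where 8.23% of all genes tested passed higher and 4.3% lower. The log2 fold changes were above 0 for all 8, with a median of 3.40 against -0.02 for all genes tested, and 5 had an unadjusted p under 0.05. The largest were Retnlg at 4.37 (SE 1.37, limma adjusted p = 0.0663), Ltf at 4.12 (SE 1.29, adjusted p = 0.0655) and S100a8 at 3.67 (SE 1.13, adjusted p = 0.0605). For none of the 10 genes did the groups separate, against 12.7% of all genes tested whose NASH-fib libraries all lay higher. This count moved with HSC replicate 2 and with NASH-fib replicate 1. Without the first 5 of 8 passed, without the second 4 did, and without both 6 did. Over all genes tested 1022, 1261 and 1313 passed higher in these fits, against 1124 in the fit of all libraries. Without both libraries S100a8 was at 5.67 on the log2 scale (limma adjusted p = 0.0011). On the recovered reads edgeR called 1 of the 8 genes (Ltf) and DESeq2 called 2 (Ltf and S100a8).

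Between CCl4-fib and HSCs, Csf3r alone passed, lower in CCl4-fib by limma at -3.32 on the log2 scale (SE 1.04, adjusted p = 0.0362), where 11.7% of all genes tested passed lower and 16.2% higher. S100a8, Ngp and Csf3r had every CCl4-fib library below every HSC library, against 20.9% of all genes tested. The median log2 fold change of the 8 genes was -1.98, against 0.18 for all genes tested. Ngp was at -3.86 (SE 1.33, limma adjusted p = 0.0525) and passed by edgeR (adjusted p = 0.0290) and DESeq2 (adjusted p = 0.0058). Csf3r lost its call without any one of HSC replicates 2 and 3 or of the CCl4-fib libraries (limma adjusted p between 0.0819 and 0.121). The 3 comparisons share their libraries in pairs and are not independent of each other.

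**Figure D2:**
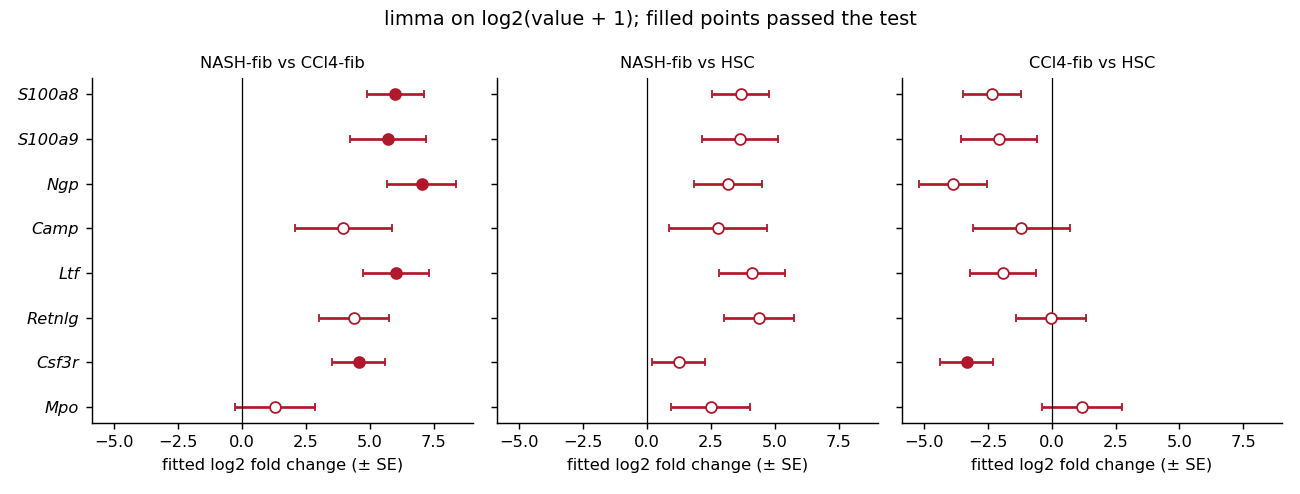
Fitted log2 fold changes (points, limma on the log2 value plus 1) with their standard errors (bars) for the 8 tested genes in the 3 comparisons, filled where the gene passed the test. In NASH-fib against CCl4-fib 5 of 8 points are filled, in NASH-fib against HSCs none, and in CCl4-fib against HSCs that of Csf3r.

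Libraries that share a label date allow the groups to be set side by side within it. In the date common to all groups, NASH-fib replicate 1 was below HSC replicate 2 for 10 of 10 genes, with 222 against 281 for S100a8 and 208 against 454 for Ngp, and was above CCl4-fib replicate 1 for 7 of 10. In another date, NASH-fib replicate 2 was above CCl4-fib replicate 3 for 10 of 10 genes and NASH-fib replicate 3 for 9 of 10. The excess over CCl4-fib was thus seen in both dates, with log2 differences of 4.94 to 6.78 for S100a8, and the excess over HSCs was not seen in the single pair of libraries that shares a date. No other NASH-fib and HSC libraries share one, so for them the date and the group cannot be told apart. With the date as a block, 3 of the 8 genes passed between NASH-fib and CCl4-fib (S100a8, Ngp and Csf3r) and 0 between NASH-fib and HSCs. Over all genes tested, 344 passed higher in the first comparison and 549 in the second, against 678 and 1124 without the block.

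The 10 genes together took 0.145% of the reads of NASH-fib replicate 2 (7281 reads), 0.0302% of replicate 3 and 0.0138% of replicate 1. In HSCs they took 0.0241% of replicate 2 and 0.00118% and 0.00166% of replicates 1 and 3, and in CCl4-fib between 0.000124% and 0.00175%. The NASH-fib pool with the least was thus below HSC replicate 2. NASH-fib replicate 2 was the highest library for 9 of the 10 genes, while it was the highest for 8.41% of all genes tested.

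General leukocyte markers did not order the libraries in the same way. Ptprc, which encodes CD45, the antigen used to remove leukocytes in the sort, had values of 88.8, 315 and 258 for HSCs, 8.73, 25.5 and 24.8 for CCl4-fib and 319, 62.3 and 312 for NASH-fib. The summed value of the 10 genes per unit of Ptprc was 104 in NASH-fib replicate 2, where Ptprc was lowest for the group, and between 0.287 and 4.33 in the other 8 libraries. The leukocyte markers differed among themselves within NASH-fib. Cd53, Cd48 and Lcp1 were lowest in replicate 2, like Ptprc. Coro1a, Laptm5, Fcer1g, Rac2, Cytip, Ptpn18 and Itgb2 were lowest in replicate 1, as were Cd52 (113, 310 and 564) and Tyrobp (93.8, 313 and 744). HSC replicate 3 had the highest pan-leukocyte sum (6152) and a summed value of the neutrophil genes of 74.1. Between NASH-fib and CCl4-fib, however, the leukocyte markers moved with the neutrophil genes, 8 of 13 being higher by limma and 0 lower. Also higher were 7 of 12 hepatocyte markers, 9 of 10 markers of sinusoidal endothelial cells, 5 of 7 of monocytes and 3 of 13 of macrophages. Of all genes tested, 4.97% were higher in this comparison and 5.66% lower. Cytip among the leukocyte markers and F13a1 among those of monocytes met the filter on low counts only with NASH-fib libraries counted. The part of these marker lists in the difference of the neutrophil genes was not tested. Between NASH-fib and HSCs, 0 of the 13 leukocyte markers passed in either direction, where 8.23% of all genes tested passed higher and 4.3% lower.

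**Figure D3:**
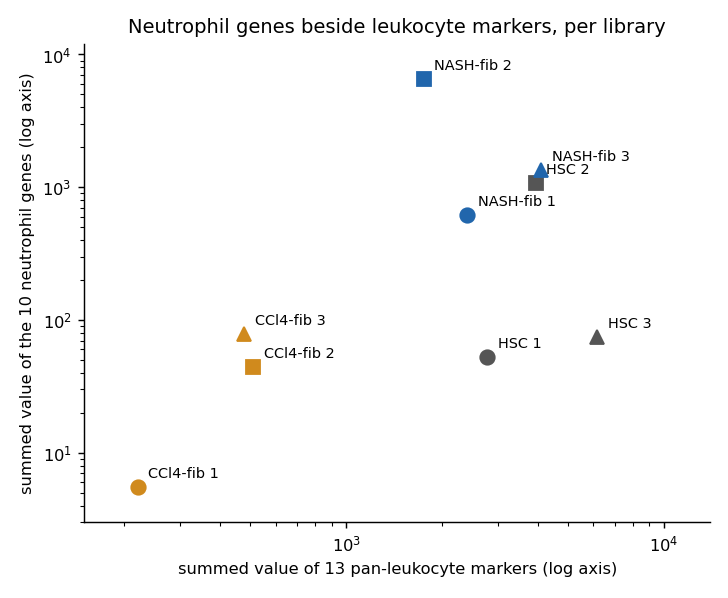
Summed value of the 10 neutrophil genes (y, log axis) against the summed value of 13 pan-leukocyte markers (x, log axis) in each of the 9 libraries, with a colour per group and a marker per replicate. CCl4-fib is low on both axes, and NASH-fib replicate 2 is the highest on the y axis with an x value (1752) below those of all 3 HSC libraries.

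The make-up of the reads differed among the 8 libraries with 40 or more of them. In CCl4-fib replicate 3, 34 of the 82 reads on the 10 genes fell on Mpo and Elane, a share of 41.5% (Wilson 95% interval 31.4% to 52.3%, counting error only). In each of the other libraries that share was at most 1.92%, including 1.03% in NASH-fib replicate 2 (0.823% to 1.29%) and 0.405% in HSC replicate 2. In HSC replicate 3, Csf3r alone held 32.3% of 62 reads, against 0.440% of 7281 in NASH-fib replicate 2. S100a8, S100a9 and Ngp together held more than the other 7 genes in each of these 8 libraries, with 52.4% in CCl4-fib replicate 3, 78.7% in NASH-fib replicate 2 and 94.1% in NASH-fib replicate 1.

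**Figure D4:**
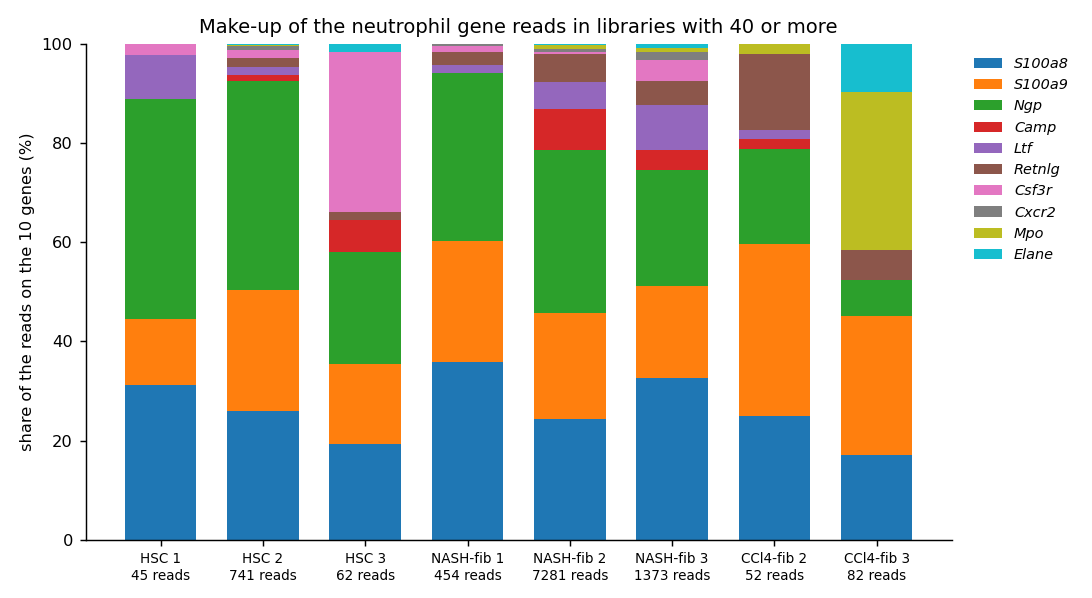
Share (%) of the reads on the 10 genes that fell on each of them, one bar for each of the 8 libraries with 40 or more such reads and a colour per gene. Mpo and Elane make up 41.5% of the bar of CCl4-fib replicate 3 and Csf3r 32.3% of that of HSC replicate 3.

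Across the 9 libraries the 28 pairs of tested genes correlated on the log2 scale with Pearson's r between 0.308 and 0.982 (median 0.765). These are descriptions over libraries that share groups, dates and depth. The 10 genes whose profile was most like the mean profile of the 8 genes (r from 0.839 to 0.920) included Hal (r = 0.920), which encodes histidine ammonia-lyase, Trem3 (0.898), an activating receptor of myeloid cells, Il6ra (0.890), the interleukin 6 receptor, and Chil3 (0.861), a chitinase-like protein of neutrophils and macrophages. Of these, Hal, Il6ra and Chil3 were higher in NASH-fib than in CCl4-fib by limma (log2 fold changes 2.81, 1.84 and 5.14). The rest were Asun, Aplp2, Stt3b, Ccdc191, D130017N08Rik and Asb1. They passed in no comparison, with log2 fold changes of 0.45 to 0.88 against CCl4-fib. Of the 10, only Trem3 and Chil3 are on the list of further neutrophil genes described below. Neighbours of the members differed among themselves in this comparison. Of the 18 other tested genes between Camp and Ltf, 2 (Rtp3 and Als2cl) were higher in NASH-fib than in CCl4-fib and 2 (Klhl18 and Ptpn23) lower, and of 19 within 500 kb of S100a8 and S100a9, 0 were higher and S100a16 was lower. Of all genes tested, 4.97% were higher and 5.66% lower.

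A list of 95 further genes of neutrophils in the file, of which 62 were tested, showed a mixed picture. Against CCl4-fib, 18 were higher in NASH-fib by limma and 7 lower (4.97% and 5.66% of all genes tested), with a median log2 fold change of 1.55. Of the 18, Clec4e and Slfn1 met the filter on low counts only with NASH-fib libraries counted. Against HSCs, 7 were higher and 2 lower, shares near the 8.23% and 4.3% of all genes tested. Many of these genes are also used by monocytes and macrophages.

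The surface receptors of the list followed the members in NASH-fib against CCl4-fib, with 8 of 17 higher and 0 lower, where 4.97% and 5.66% of all genes tested were. The formyl peptide receptor Fpr1 had values of 87.7, 280 and 466 for HSCs, 0, 0.85 and 0 for CCl4-fib and 31.3, 17.8 and 108 for NASH-fib, so that CCl4-fib lay apart and HSCs and NASH-fib overlapped. It was higher in NASH-fib than in CCl4-fib by 5.04 on the log2 scale and lower in CCl4-fib than in HSCs, at -7.53. Between CCl4-fib and HSCs 9 of the 17 receptors were lower, where 11.7% of all genes tested were, as was Csf3r among the members. Clec4e, a receptor for glycolipids and dead cells, differed from both other groups, with 99.2, 24.1 and 27.5 in NASH-fib against at most 2.91 elsewhere (log2 fold change 4.14 against HSCs, limma adjusted p = 0.0071). It met the filter on low counts only with NASH-fib libraries counted. That it was tested, and its place among the 8, thus depended partly on its NASH-fib reads. Ly6g, the surface antigen that defines mouse neutrophils, was read in 3 libraries only, with 17 reads in NASH-fib replicate 2, 3 in NASH-fib replicate 3 and 4 in HSC replicate 2. Those are the 3 libraries with the most reads on the 10 genes, and NASH-fib replicate 1, the next, had 0.

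Among the other granule genes, 5 of 12 tested products of secondary and tertiary granules were higher in NASH-fib than in CCl4-fib (Chil3, Arg1, Orm1, Lyz2 and Cybb), where 4.97% of all genes tested were. Arg1 and Orm1 are also abundant in hepatocytes, whose markers were higher in the same comparison, and Lyz2 and Cybb in macrophages. Arg1, Orm1, Lyz2 and Cybb were lowest of the NASH-fib libraries in replicate 2, where the members were highest, with Orm1 at 2292, 433 and 2220.2 and Alb, the hepatocyte gene for albumin, at 14897, 1787 and 7894 in NASH-fib replicates 1, 2 and 3. The part of hepatocyte and macrophage RNA in these calls was not tested. Lcn2, a secondary granule protein that injured liver cells also make, did not follow the members. It had values of 1.17, 23.3 and 59.8 for HSCs, 1095, 1380.4 and 1744 for CCl4-fib and 34.0, 1251 and 1439 for NASH-fib, and was higher in CCl4-fib than in HSCs by 6.55 on the log2 scale (limma adjusted p = 0.0068). Several genes of neutrophils and their precursors did not pass the filter, and those given here were chosen after their values were seen. Fcnb had 57 reads in NASH-fib replicate 2, 5 in NASH-fib replicate 3 and 5 in CCl4-fib replicate 3, and Cd177 had 26 reads in NASH-fib replicate 2, 2 in NASH-fib replicate 3 and 0 elsewhere. Ms4a3, a gene of granulocyte precursors, had 15 and 7 reads in NASH-fib replicates 2 and 3, and Ctsg, which encodes cathepsin G, had 9 in each and 4 in CCl4-fib replicate 3. Others were highest elsewhere, such as Clec4d, with 20 reads in NASH-fib replicate 1, and Selplg, with 21 in HSC replicate 3. Of 7 transcription factors of granulocytes, Cebpe and Gfi1 were at the floor, with at most 1 and 2 reads in any library, while Cebpb (values 239 to 847) and Cebpd (128 to 393) were read in all libraries and did not pass in any comparison. Spi1, which encodes PU.1, had values of 11.7, 33.5 and 16.7 for HSCs, 0, 1.7 and 0 for CCl4-fib and 5.44, 1.78 and 2.95 for NASH-fib and was lower in CCl4-fib than in HSCs (log2 fold change -3.83, limma adjusted p = 0.0039). Runx1 was lower in NASH-fib than in CCl4-fib (-2.86, limma adjusted p = 0.0203) and higher in CCl4-fib than in HSCs (4.93).

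Of the 7 tested genes for ligands of the member receptors and neutrophil growth factors, Cxcl1, Cxcl2 and Cxcl5 were lower in NASH-fib than in CCl4-fib, the direction opposite to that of the receptors, and 0 were higher. Of all genes tested, 5.66% were lower and 4.97% higher. Cxcl5 had values of 12.9, 5.82 and 27.5 for HSCs, 2068, 2782 and 4243 for CCl4-fib and 32.6, 35.6 and 48.2 for NASH-fib. It was lower in NASH-fib than in CCl4-fib at -6.21 on the log2 scale (SE 0.53, limma adjusted p = 0.0020), with no overlap. Cxcl1 had values of 14.0, 153 and 23.9 for HSCs, 1234, 1818 and 1071 for CCl4-fib and 95.2, 134 and 88.5 for NASH-fib, and Cxcl2 had 8.18, 2.91 and 3.59, then 82.6, 249 and 462, then 14.95, 10.7 and 38.3. Both were lower in NASH-fib than in CCl4-fib by limma (log2 fold changes -3.67 and -3.46, adjusted p = 0.0156 and 0.0200) and higher in CCl4-fib than in HSCs (5.12 and 5.28). These 3 ligands of CXCR2 were thus highest in CCl4-fib, where Cxcr2 itself had 0 reads. Ppbp, which encodes another ligand of CXCR2 and is stored in platelets, differed from them, with 66.6, 26.2 and 23.9 for HSCs, 0, 0 and 5.72 for CCl4-fib and 0, 5.34 and 6.88 for NASH-fib. It was lower in CCl4-fib than in HSCs (log2 fold change -4.25, limma adjusted p = 0.0120) and did not pass between NASH-fib and CCl4-fib (0.96, adjusted p = 0.563). Csf3, the ligand of Csf3r, was read only in CCl4-fib, with 4, 2 and 4 reads. Of the receptors that secreted calprotectin binds, Tlr4 was read in all groups (values 310 to 769) and did not pass in any comparison, and Ager was higher in CCl4-fib, with 64.3, 38.3 and 28.6 against at most 5.34 in NASH-fib (log2 fold change of NASH-fib against CCl4-fib -4.52, limma adjusted p = 0.0150).

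**Figure D5:**
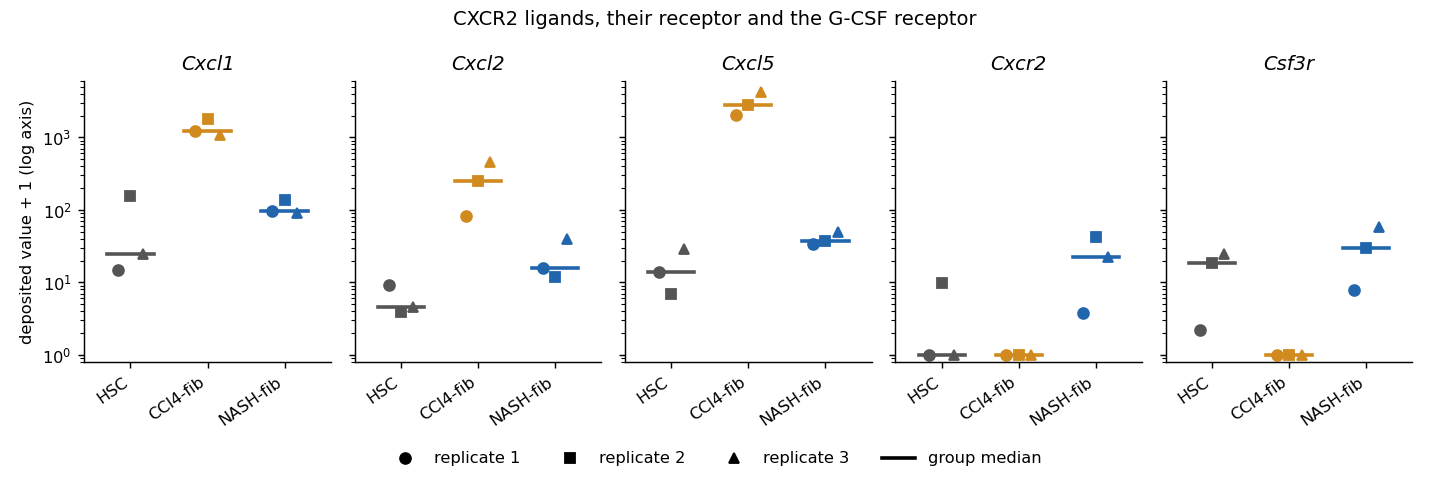
Deposited value plus 1 (log axis) of 3 chemokines that bind CXCR2 and of the receptor genes Cxcr2 and Csf3r, with a marker per replicate, a colour per group and a bar at the group median. The 3 chemokines are highest in every CCl4-fib library, where both receptors have no read.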

How the data were processed

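RNA sequencing covered 9 libraries, 3 per group, each from cells pooled from 3 to 5 mice. The authors amplified the RNA with a SMARTer kit, aligned single-end reads to mm10 with STAR and counted them on RefSeq exons with HOMER, on either strand and with at most 3 reads per position. The deposited values are a signal per gene, namely those read counts scaled to about 4471991 per library, for 24453 genes. Division by the smallest step of each library returned whole numbers for 100% of values (tolerance 0.01), the recovered reads, between 3071070 and 5634273 per library. The libraries were amplified and carry no molecular identifiers, so intervals cover counting error only.

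Because the values are not counts, limma 3.58.1 (R 4.3.3) was used on log2(value + 1) for the 13651 genes that pass edgeR's filterByExpr (minimum count 10 on recovered reads), in 1 fit over the 9 libraries with a trend in the prior spread and Benjamini-Hochberg adjustment over all genes tested. A gene was called at an absolute log2 fold change of at least 1 and an adjusted p under 0.05. Fold changes are on the log2(value + 1) scale, which understates changes of low genes. On simulated data the test recovered most of the changed genes. The simulation gave all genes the same dispersion and changed only well-read genes by large factors. It therefore cannot tell how the test performs on genes with few reads or a wide spread between pools, as many of the 10 genes were. A fold against a group at 0 was computed against 3 reads per library. Promoters came from RefSeq GRCm38.p6.

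The rule for naming genes took the 10 members, called genes of the wider list with its ligands, transcription factors and receptors, sums and counts of 14 marker lists, and the genes most like the members. Ly6g, Fcnb, Cd177, Ms4a3, Ctsg, Clec4d and Selplg among the genes not called, and Alb, were chosen with values known. The members, lists and tests were all chosen with earlier results of these data known. Alternatives were edgeR 4.0.16 with TMM, DESeq2 1.42.0, upper-quartile scaling, no filter, pseudocounts of 0.5 and 5, fits on the 2 groups only, blocks for replicate number or label date, each library left out, and, chosen after seeing the data, 2 libraries left out together. The other experiments of the study were not analysed here.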

Additional observations from a re-analysis of the deposited data

How the results depend on the processing

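With 3 pools a group, counts of calls moved with single libraries. The 8 tested genes gave 5 calls in NASH-fib against CCl4-fib, 0 to 6 with 1 library left out (0 without NASH-fib replicate 3, 2 when any CCl4-fib library was dropped), 3 with the date block, and 7 by edgeR and by DESeq2. Calls higher over all genes tested went from 678 to 94 without NASH-fib replicate 3, 344 with the date block and 1518 by DESeq2. The 62 tested genes of the wider list gave 25 there, and 10 to 28 with 1 library left out (10 without NASH-fib replicate 3, 14 when CCl4-fib replicate 1 was dropped and 12 when CCl4-fib replicate 2 was). In NASH-fib against HSCs the 8 genes gave 0 calls by limma (5 at an unadjusted p under 0.05), 1 by edgeR, 2 by DESeq2, 1 with a pseudocount of 5, 0 to 5 with 1 library left out (5 without HSC replicate 2, 4 without NASH-fib replicate 1) and 6 without both of those. The wider list gave 9 there, 15 by DESeq2, 14 with a pseudocount of 5, 3 with the date block and 15 without both libraries. In CCl4-fib against HSCs the 8 genes gave 1 call, 3 by edgeR, 4 by DESeq2, 2 with upper-quartile scaling, 0 with a pseudocount of 5, 0 to 2 with 1 library left out (0 without HSC replicate 2 or any CCl4-fib replicate) and 0 without HSC replicate 2 and NASH-fib replicate 1. Over all genes tested, edgeR on the recovered reads called 802 higher and 563 lower in NASH-fib against CCl4-fib, where limma called 678 and 773, 1095 and 481 in NASH-fib against HSCs (limma 1124 and 587), and 1876 and 1716 in CCl4-fib against HSCs (limma 2209 and 1592). The causes were not tested.

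Replicate numbers did not pair the samples, since 1 of 9 same-numbered pairs of libraries had deviations from the group means that correlated over 0.1 (r from -0.473 to 0.514). With the replicate number as a block, the 8 genes gave 6 calls in NASH-fib against CCl4-fib, 4 in NASH-fib against HSCs and 2 in CCl4-fib against HSCs. Over all 13651 genes tested, 472 then passed higher and 457 lower in the first comparison, 1017 and 470 in the second and 1915 and 1397 in the third. Without the block these were 678 and 773, 1124 and 587, and 2209 and 1592.

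Directions reversed for Mpo, Camp, Csf3r and Retnlg. On the log2 scale Mpo was at -0.31 with the date block in NASH-fib against CCl4-fib, and between -0.021 (NASH-fib replicate 2 left out) and 2.86 with 1 library left out. In NASH-fib against HSCs the date block gave -0.22 for Camp, -0.47 for Csf3r and -0.97 for Mpo. In CCl4-fib against HSCs Retnlg was at 0.038 with a pseudocount of 0.5, between -0.95 and 1.26 with 1 library left out (1.26 without HSC replicate 2, 0.89 without the first CCl4-fib library) and 1.26 without HSC replicate 2 and NASH-fib replicate 1 together. Mpo was at -0.66 there with the date block, and between -0.21 (the third CCl4-fib library left out) and 2.13 with 1 library left out. None of these passed the test by limma. The median log2 fold change of all genes tested moved with the scaling, from -0.11 to 0.14 by edgeR in NASH-fib against CCl4-fib and from 0.18 to 0.0014 in CCl4-fib against HSCs. At these depths a gene at 0 reads allows a value of up to 2.38 to 4.37.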

Other observations

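Markers of other granulocytes and their relatives had few reads. Of 7 markers of eosinophils, basophils and mast cells none passed the filter, and their summed value was at most 34.7 in any library, with Epx, the eosinophil peroxidase, at 0 in all 9. Ccr3 was above the floor, with 27 reads in HSC replicate 3, 24 in NASH-fib replicate 3 and 8 in CCl4-fib replicate 3. Neutrophil genes and those of dendritic cells were highest in different NASH-fib libraries. The summed value of 7 dendritic cell markers was 215, 28.5 and 107 in NASH-fib replicates 1, 2 and 3, against 0 to 2.86 in CCl4-fib and 67.0 to 140 in HSCs. The summed value of 13 markers of T and NK cells was 208, 117 and 459 in the same NASH-fib libraries, so that NASH-fib replicate 2, the highest for the neutrophil genes, was the lowest for both lists. Monocyte markers were higher in NASH-fib than in CCl4-fib by limma in 5 of 7 cases (Ccr2, F13a1, Ms4a4c, Chil3 and Fcgr1), where 4.97% of all genes tested were. Against HSCs, Ly6c2 and F13a1 were higher, where 8.23% of all genes tested were. In NASH-fib against CCl4-fib, 1 of 5 tested markers of B and plasma cells (Jchain) was higher by limma. So were 2 of 4 of dendritic cells (Clec9a and Siglech) and 2 of 5 of T and NK cells (Cd3g and Nkg7). F13a1, Siglech, Cd3g and Nkg7 met the filter on low counts only with NASH-fib libraries counted. These counts thus depended partly on NASH-fib reads. In the other direction, where 5.66% of all genes tested were lower, 1 of 3 of platelets (Itga2b), 2 of 6 of erythroid cells (Hba-a1 and Hba-a2) and 2 of 5 of proliferating cells (Cdk1 and Birc5) were lower. So were 3 of 9 of activated fibroblasts (Col1a1, Col1a2 and Col3a1), and 0 of 7 of quiescent stellate cells passed.

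Serpinb1a, an inhibitor of neutrophil serine proteases, was high in both kinds of fibroblast, with values of 3958, 1527 and 1603 in NASH-fib, 1383, 1393 and 1627 in CCl4-fib and 51.4, 34.95 and 149 in HSCs. It was higher than in HSCs by limma in both (log2 fold changes 5.02 and 4.48), while its difference between the models, 0.54 on the log2 scale, did not pass (adjusted p = 0.535). Its target Elane had at most 15 reads in any library.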
